A study of Mus musculus with 10 samples.

Results

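Mitochondrial ribosomal protein genes were followed as a group in sorted cells from mouse pancreatic tumours and pancreas. Members were all rows of the gene count table whose symbol is Mrpl or Mrps followed by a number and at most 1 letter. The rule uses names only and found 78 of 55401 genes, 49 Mrpl (proteins named for the large subunit) and 29 Mrps (named for the small subunit). All 78 are protein-coding, lie on 17 chromosomes (11 of them on chromosome 11) and passed the filter on low counts, the lowest count of any member in any library being 363.

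Both groups were C57BL/6 mice of a tamoxifen-inducible KPC line, a model of pancreatic ductal adenocarcinoma. The 5 tumour libraries came from tumours of mice injected intraperitoneally with 20 mg/kg tamoxifen on 5 consecutive days from 6 weeks of age, and the 5 pancreas libraries from the pancreas of mice injected without tamoxifen. Tissue of both groups was collected at 4 months, and both groups are cells sorted by an NGFR antibody (the receptor for nerve growth factor) and labelled Schwann cells, which are glia of peripheral nerves. The labels name neither the promoter that drives Cre nor the number of animals, so p-values measure the spread between these libraries, which may be technical. Tumours were digested with a dissociation kit and pancreas with hyaluronidase and collagenase, so digestion and group cannot be told apart.

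Libraries held 58242278 to 84194616 estimated counts in tumour and 60622336 to 89816499 in pancreas. Genes ranked alike within groups (Spearman correlation over genes 0.992 to 0.994 in tumour and 0.985 to 0.993 in pancreas) and less so between them (0.942 to 0.955). Pancreas replicates 3 and 4 were closer to each other (0.993) than to the other pancreas libraries (0.985 to 0.989), so counts are also given without them. Of 10 Schwann cell markers, 3 passed the filter, and their defining genes were near or at 0: Sox10 was at 0 in every tumour library and averaged 0.0300 ± 0.0501 CPM in pancreas (CPM is a gene's share of its library's counts, scaled here by trimmed mean of M values (TMM) factors), Foxd3 was at 0 in all 10 libraries, and Ngfr averaged 0.0669 ± 0.102 CPM in tumour and 0.133 ± 0.0931 CPM in pancreas (SD, n = 5 each). The measured genes thus go against the cell label, and the groups are called tumour and pancreas below. Markers of other cell types also moved with the groups. Summed fibroblast markers ranged from 83.0 to 103 CPM in tumour and from 499 to 596 CPM in pancreas (5 of 6 tested were lower and 1 higher). The pancreas sum was mostly Thy1 (392 CPM, against 3.99 CPM in tumour) and Col3a1 (162 CPM, against 42.8 CPM in tumour). Pdgfra was the 1 that was higher, with 45.1 CPM in tumour and 12.4 CPM in pancreas (log2 fold change 1.87). Col1a1 and Col1a2 averaged at most 1.54 CPM in either group. Dcn and Lum, at 0 in tumour, averaged only 0.737 and 0.0137 CPM in pancreas. Summed endothelial markers ranged from 198 to 209 CPM in tumour and from 340 to 390 CPM in pancreas (2 of 5 lower). That sum was mostly Cdh5 (191 CPM in tumour and 333 CPM in pancreas), and Pecam1, Tek and Cldn5 averaged below 1 CPM in both groups. Summed ductal markers ranged from 39.8 to 43.2 CPM in tumour and from 89.6 to 118 CPM in pancreas (3 of 4 lower). That sum was mostly Krt19, Cftr and Sox9. Krt7, Epcam, Cdh1 and Krt8 (0 in tumour and 0.0517 CPM in pancreas) averaged below 1 CPM in both groups. Pericyte and smooth muscle markers summed to 400 to 430 CPM in tumour and 644 to 821 CPM in pancreas, with 4 of 7 lower (Acta2 by a log2 fold change of -7.25) and 3 higher (Des 3.52, Myh11 1.91 and Cspg4 0.54). Some marker lists were higher in tumour: macrophage markers summed to 15.1 to 18.8 CPM in tumour and 4.33 to 14.7 CPM in pancreas (1 of 2 tested higher, Cd68, with Adgre1 at 0 in all libraries), and acinar markers to 1.53 to 2.73 CPM in tumour and 0.398 to 1.28 CPM in pancreas (the 1 tested, Cela1, higher, with Cpa1, Prss2 and Amy2a5 at 0 in all libraries). Proliferation genes summed to 667 to 783 CPM in tumour and 598 to 888 CPM in pancreas, with 3 of 9 higher (Top2a, Ccnb1 and Mcm2) and 2 lower (Mcm5 and Pcna). T and NK cell markers summed to at most 0.103 CPM in tumour and 0.310 CPM in pancreas, and 0 of 5 passed the filter. Their part in the results below was not tested. In such bulk samples fewer cells of a type and less RNA per cell cannot be told apart.

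Mitochondrial ribosomes translate the few messenger RNAs encoded by mitochondrial DNA, all of which specify subunits of the respiratory chain and the ATP synthase. Their ribosomal RNAs come from mitochondrial DNA, whereas every one of their proteins is encoded in the nucleus, made in the cytosol and imported. Many of these proteins descend from bacterial ribosomal proteins, and the rest have no bacterial counterpart. Nuclear respiratory factor 1 (NRF1), ETS factors such as GABP, and YY1 are known to bind promoters of many nuclear genes for mitochondrial proteins.

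Promoter windows of 300 bases, from 250 bases before to 50 after the RefSeq start (build GRCm38.p6), were available for 69 of the 78 members. They are shown for the pair of members with the lowest and the pair with the highest tumour over pancreas ratio, because these genes mark the ends of the range described below. Capitals mark the ETS letters CCGGAAG (or CTTCCGG, the same site on the other strand) and the NRF1 letters, GCGCA and GCGC with any 1 base between them (on either strand). The window of Mrpl18 is chr17:12916042-12916341 (minus strand), that of Mrpl52 is chr14:54426659-54426958 (plus strand), that of Mrps9 is chr1:42850983-42851282 (plus strand) and that of Mrpl23 is chr7:142532782-142533081 (plus strand).
Mrpl18: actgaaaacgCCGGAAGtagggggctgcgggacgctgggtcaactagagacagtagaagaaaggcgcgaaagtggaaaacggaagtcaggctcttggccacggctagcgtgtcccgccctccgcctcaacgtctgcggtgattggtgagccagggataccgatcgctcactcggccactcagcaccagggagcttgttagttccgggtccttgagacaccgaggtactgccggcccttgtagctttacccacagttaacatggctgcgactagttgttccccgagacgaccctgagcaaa
Mrpl52: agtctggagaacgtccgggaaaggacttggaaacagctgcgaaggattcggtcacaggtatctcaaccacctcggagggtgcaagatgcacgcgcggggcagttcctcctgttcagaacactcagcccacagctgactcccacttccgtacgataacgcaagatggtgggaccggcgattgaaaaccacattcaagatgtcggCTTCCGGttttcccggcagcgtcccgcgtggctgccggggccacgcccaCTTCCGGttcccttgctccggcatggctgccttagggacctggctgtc
Mrps9: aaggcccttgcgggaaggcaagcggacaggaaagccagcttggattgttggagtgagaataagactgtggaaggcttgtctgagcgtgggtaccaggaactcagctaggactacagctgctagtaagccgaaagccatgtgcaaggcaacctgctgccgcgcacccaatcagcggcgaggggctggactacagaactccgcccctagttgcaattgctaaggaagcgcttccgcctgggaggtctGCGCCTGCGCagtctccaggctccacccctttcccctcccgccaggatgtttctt
Mrpl23: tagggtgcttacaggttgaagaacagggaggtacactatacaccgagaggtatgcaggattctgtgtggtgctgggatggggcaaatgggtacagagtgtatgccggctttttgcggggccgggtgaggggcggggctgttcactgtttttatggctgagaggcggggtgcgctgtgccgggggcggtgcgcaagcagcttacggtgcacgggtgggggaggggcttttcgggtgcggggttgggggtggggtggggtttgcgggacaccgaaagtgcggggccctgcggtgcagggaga
The windows of both lowest members held the ETS letters and that of Mrps9 held the NRF1 letters. That of Mrpl23 held none of the 5 motifs searched. By the gene coordinates used below (GENCODE M21), the windows of Mrpl18 (chr17:12911349-12916345) and Mrpl23 (chr7:142532686-142540747) lie inside the gene. They hold no base before the outermost start of that annotation, and the bases before it were not searched. A few members have several windows (75 in all), so each count below is of members with the letters in at least 1 window. The ETS letters were found in 26 of 69 members (37.7%), against 18.8% of tested genes and 9.93% of all genes with RefSeq windows of the same length. The NRF1 letters were found in 13 members (18.8%), against 10.6% and 5.19%. The YY1 letters AAGATGGC were found in 12 members (17.4%), against 4.96% and 3.19%. The E-box CACGTG, bound by Myc among others, was found in 5 members (7.25%, against 11.2% and 8.09%), and the TATA letters TATAAA also in 5 (7.25%, against 9.16% and 15.7%). All motifs were searched on both strands, and in the member windows the NRF1, ETS and YY1 matches overlapped in 0 cases. Read against the changes described next, the ETS letters were found in 18 of 40 members lower in tumour (45.0%), 1 of 8 higher in tumour (12.5%) and 7 of 21 not called (33.3%). The other motifs were not split that way: the NRF1 letters were found in 12.5% of the lower, 12.5% of the higher and 33.3% of the members not called, the YY1 letters in 20.0%, 25.0% and 9.52%, the E-box in 7.50%, 12.5% and 4.76%, and the TATA letters in 7.50%, 0% and 9.52%. None of these splits was tested. These matches describe letters in a window and not sites in use.

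Most mitochondrial ribosomal protein genes were lower in tumour than in pancreas, by modest amounts. At an adjusted p of 0.05 (edgeR quasi-likelihood F test, Benjamini-Hochberg over all 17548 genes tested), 45 of the 78 members fell (57.7%), against 33.4% of all tested genes, and 9 rose (11.5%), against 32.4%. The other 24 did not pass the test. Of all tested genes 65.8% were called in either direction. The median log2 fold change of tumour over pancreas was -0.25 over the members (interquartile range -0.46 to -0.03, extremes -1.12 and 0.69), beside a median of 0.00 over all tested genes. A called decrease of at least 1.5-fold was seen in 13 of the 78 members, a smaller share than the 19.2% of all tested genes. A called increase of that size was seen in 2 of the 78, also a smaller share than the 20.3% of all tested genes. Without pancreas replicates 3 and 4, 48 members were lower and 5 higher, with a median of -0.30. In 37 of the 78 members every tumour library lay below every pancreas library, a larger share than the 27.4% of all tested genes. In 6 of the 78 every tumour library lay above, a smaller share than the 27.2% of all tested genes. When libraries were scaled by their totals alone, without TMM factors, the median of all genes moved up by 0.10 and the split of the members became 35 lower and 13 higher, while the median of the members stayed 0.25 below that of all genes.

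**Figure D1:**
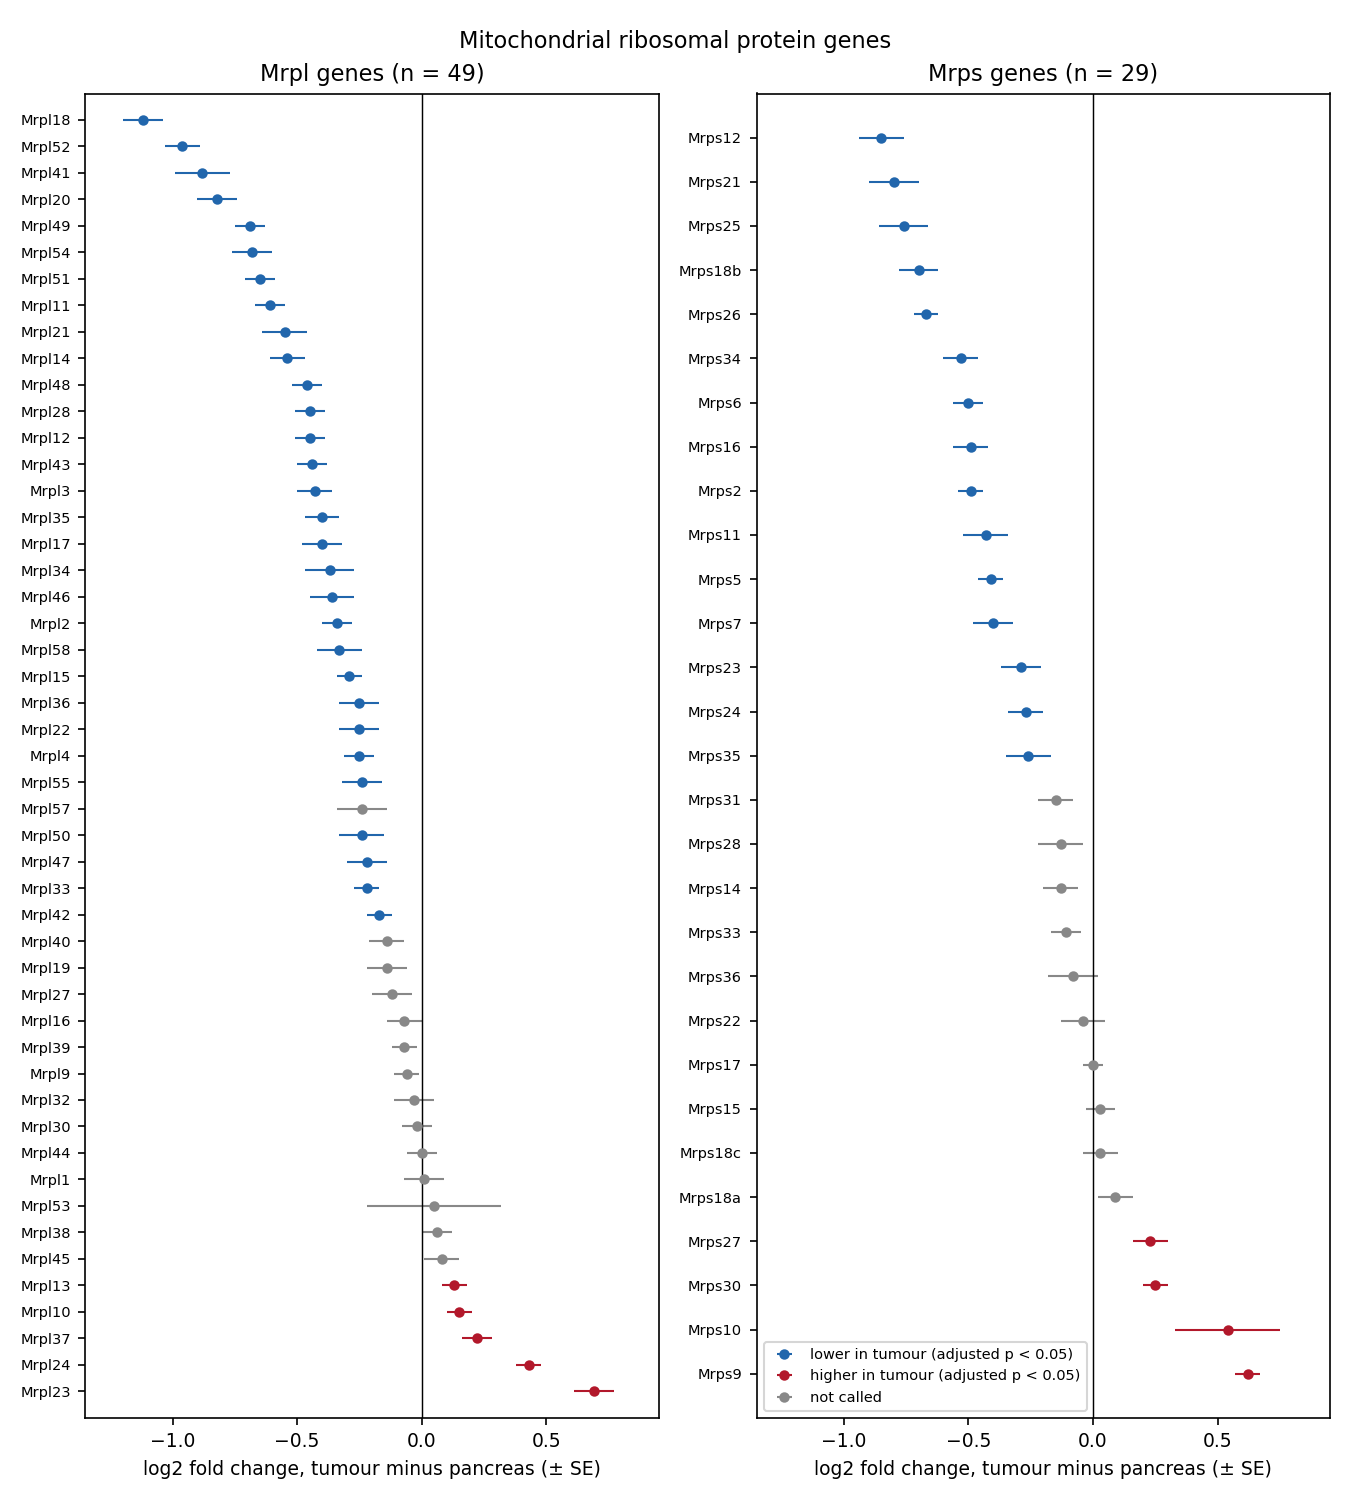
Log2 fold change of tumour over pancreas (horizontal axis, with standard error bars) for each of the 78 members, with 1 panel per name class, ordered from the lowest to the highest and coloured by call. Mrpl18 (-1.12) and Mrpl52 (-0.96) lie at the low end, Mrps9 (0.62) and Mrpl23 (0.69) at the high end, and both classes are spread over the whole range.

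Mrpl and Mrps genes shifted by about the same amount. Of the 49 Mrpl genes 30 fell (61.2%) and 5 rose (10.2%), with a median log2 fold change of -0.25, and of the 29 Mrps genes 15 fell (51.7%) and 4 rose (13.8%), with a median of -0.26. The Mrpl median exceeded the Mrps median by 0.01, and leaving out each library in turn moved that difference between -0.04 and 0.02. Summed over members, Mrpl transcripts made up 1519, 1531, 1550, 1493 and 1538 CPM of unscaled total counts in the tumour libraries, against 1646, 1749, 1594, 1663 and 1772 CPM in the pancreas libraries. On the same scale Mrps transcripts made up 780, 791, 789, 788 and 798 CPM in the tumour libraries, against 829, 903, 832, 876 and 926 CPM in the pancreas libraries. In both sums every tumour library lay below every pancreas library, and the tumour libraries were closer to each other. The tumour mean was 0.906 of the pancreas mean for Mrpl and 0.904 for Mrps, and with TMM-scaled library sizes 0.843 and 0.842. The ratio of the Mrpl sum to the Mrps sum was 1.95, 1.93, 1.96, 1.89 and 1.93 in tumour, against 1.99, 1.94, 1.92, 1.90 and 1.91 in pancreas, so it averaged 1.93 ± 0.0260 in tumour and 1.93 ± 0.0343 in pancreas (SD, n = 5 each), a difference within the spread of the libraries.

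**Figure D2:**
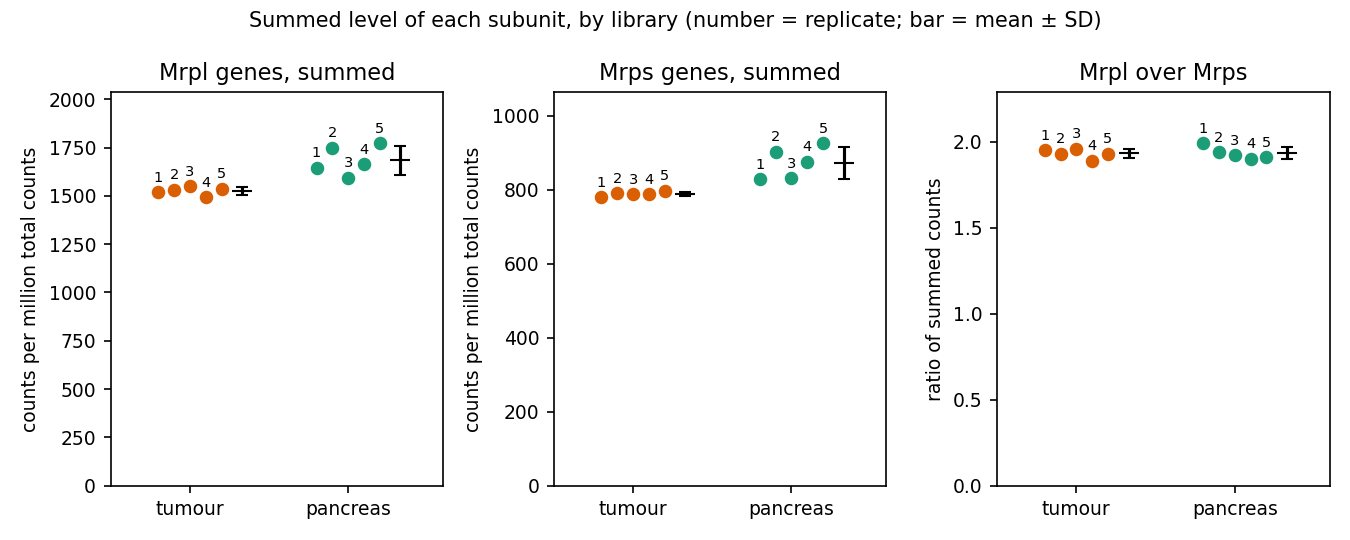
Summed CPM (of unscaled total counts) of the Mrpl genes and of the Mrps genes and the ratio of the sums (vertical axes) in each tumour and pancreas library (points) with group mean and SD. Tumour libraries lie below pancreas libraries in both sums (1493 to 1550 against 1594 to 1772 CPM for Mrpl), whereas the ratios of the groups overlap.

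Names do not always give the subunit. Mrps18a and Mrps30 are known from structures of the mammalian mitoribosome to sit in the large subunit, and Mrps36 has been assigned to the oxoglutarate dehydrogenase complex. With those genes placed by structure, 30 of 51 large-subunit genes fell and 6 rose (median -0.24), and 15 of 26 small-subunit genes fell and 3 rose (median -0.28). By the naming system that separates them, genes with and without a bacterial counterpart also had similar medians: 28 of 46 genes with a bacterial counterpart fell and 6 rose (median -0.25), and 17 of 31 genes without one fell and 3 rose (median -0.24). That system counts Mrps18a and Mrps18b as specific to mitochondria although their sequences are related to bacterial S18, and with both moved to the first class 29 of 48 fell and 6 rose (median -0.25), and 16 of 29 fell and 3 rose (median -0.24). Mrps36 itself did not pass the test (log2 fold change -0.08, adjusted p = 0.477).

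The largest decrease was that of Mrpl18 (ENSMUSG00000057388.9, chr17:12911349-12916345 on mm10, minus strand), whose bacterial relative binds ribosomal RNA in the central protuberance of the large subunit. It had 20.3, 20.6, 22.3, 19.9 and 18.3 CPM in the tumour libraries, against 42.3, 46.3, 40.6, 40.0 and 52.0 CPM in the pancreas libraries. The groups were far apart, with a log2 fold change of -1.12 ± 0.08 (SE) and an adjusted p of 4.2e-08. Tcp1, a subunit of the cytosolic chaperonin, overlaps 10.1% of the exonic bases of Mrpl18 and also fell (-0.84, adjusted p = 3.9e-09, with 186 CPM in tumour and 332 CPM in pancreas). The library kit does not mark strand, so reads in the shared bases cannot be assigned to 1 of them.

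Mrpl52 (ENSMUSG00000010406.12, chr14:54426909-54429756), a large-subunit protein without a bacterial counterpart, had 35.3, 36.6, 37.3, 31.3 and 36.2 CPM in the tumour libraries, against 66.2, 76.1, 61.3, 64.4 and 75.9 CPM in the pancreas libraries. Its fold change was -0.96 ± 0.07 on the log2 scale (adjusted p = 6.8e-08). Mrpl41 (chr2:24974117-24975098), likewise specific to mitochondria, had 13.1, 11.7, 13.8, 11.0 and 15.0 CPM in tumour, against 25.1, 23.8, 20.4, 21.3 and 28.5 CPM in pancreas (-0.88 ± 0.11, adjusted p = 7.4e-06). Neither gene had overlapping groups, and in both pancreas replicate 5 was among the highest libraries.

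Mrps12 (chr7:28739641-28741820) is the relative of bacterial S12, which lies at the decoding centre of the small subunit. It had 16.8, 14.6, 15.9, 12.6 and 14.1 CPM in the tumour libraries, against 22.8, 26.0, 27.0, 27.2 and 30.3 CPM in the pancreas libraries (-0.85 ± 0.09, adjusted p = 2.7e-06). Mrpl20 (chr4:155802878-155809975), relative of a bacterial protein needed early in large-subunit assembly, had 13.3, 12.2, 13.4, 11.9 and 12.3 CPM in tumour, against 21.7, 23.9, 20.5, 20.5 and 24.7 CPM in pancreas (-0.82 ± 0.08, adjusted p = 5.7e-07). Mrps21 (chr3:95862634-95871519), a small-subunit protein with a bacterial relative, had 15.7, 16.3, 16.2, 18.4 and 16.5 CPM in tumour, against 24.7, 31.2, 26.0, 27.4 and 35.3 CPM in pancreas (-0.80 ± 0.10, adjusted p = 5.6e-06). In all 3 genes the highest tumour library stayed below the lowest pancreas library.

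The largest increase was that of Mrpl23 (ENSMUSG00000037772.13, chr7:142532686-142540747), whose bacterial relative stands at the exit of the tunnel through which the new protein leaves the large subunit. It had 28.3, 32.9, 30.7, 30.1 and 32.8 CPM in the tumour libraries, against 18.4, 16.6, 18.5, 22.3 and 20.2 CPM in the pancreas libraries (0.69 ± 0.08, adjusted p = 5.0e-06). A pseudogene, Mrpl23-ps1, is 100% identical to 78.0% of its principal transcript, so reads could be split between the copies, and the pseudogene itself had 0.332 CPM in tumour and 0.315 CPM in pancreas. Mrps9 (ENSMUSG00000060679.14, chr1:42851233-42905683), of the head of the small subunit, had 45.9, 42.9, 48.3, 47.5 and 46.6 CPM in tumour, against 28.0, 29.1, 30.5, 30.7 and 31.6 CPM in pancreas (0.62 ± 0.05, adjusted p = 2.4e-07). Both genes were higher in every tumour library than in any pancreas library.

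Mrpl24 (chr3:87919506-87923672), whose bacterial relative also lies at the tunnel exit, had 75.3, 76.8, 78.5, 77.5 and 71.1 CPM in the tumour libraries, against 55.1, 53.8, 60.0, 58.5 and 53.3 CPM in the pancreas libraries (0.43 ± 0.05, adjusted p = 3.2e-06). Its exons are overlapped over 26.3% of their bases by Rrnad1, which fell (-0.40, adjusted p = 7.2e-04). Mrps30 (chr13:118378381-118387252) had 34.5, 31.7, 31.9, 33.2 and 32.3 CPM in tumour, against 26.3, 29.4, 26.7, 28.3 and 27.0 CPM in pancreas (0.25 ± 0.05, adjusted p = 0.00115). Both kept the groups apart.

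The increases of Mrps27 and Mrps10 were less secure. Mrps27 (chr13:99344786-99415562), a pentatricopeptide repeat protein of the small subunit, had 25.6, 28.2, 27.4, 23.3 and 27.0 CPM in the tumour libraries, against 21.6, 22.4, 21.5, 21.7 and 25.1 CPM in the pancreas libraries (0.23 ± 0.07, adjusted p = 0.0123), and the call was lost without pancreas replicates 3 and 4 (adjusted p = 0.0670). Mrps10 (chr17:47368887-47381417), of the small-subunit head, had 22.3, 25.6, 12.3, 27.2 and 27.6 CPM in tumour, against 17.4, 17.3, 16.1, 17.8 and 10.5 CPM in pancreas (0.54 ± 0.21, adjusted p = 0.0396). Tumour replicate 3 lay below 4 of the pancreas libraries, and without it the log2 fold change was 0.70 (adjusted p = 8.1e-04). The call of Mrps10 was lost without tumour replicate 1 (0.0590), 2 (0.0781), 4 (0.0850) or 5 (0.0862), and without pancreas replicate 1 (0.0564), 2 (0.0518), 3 (0.0667) or 5 (0.0821), each value being edgeR's adjusted p. A pseudogene 97.9% identical over 56.3% of its transcript had 1.11 CPM in tumour and 1.02 CPM in pancreas.

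**Figure D3:**
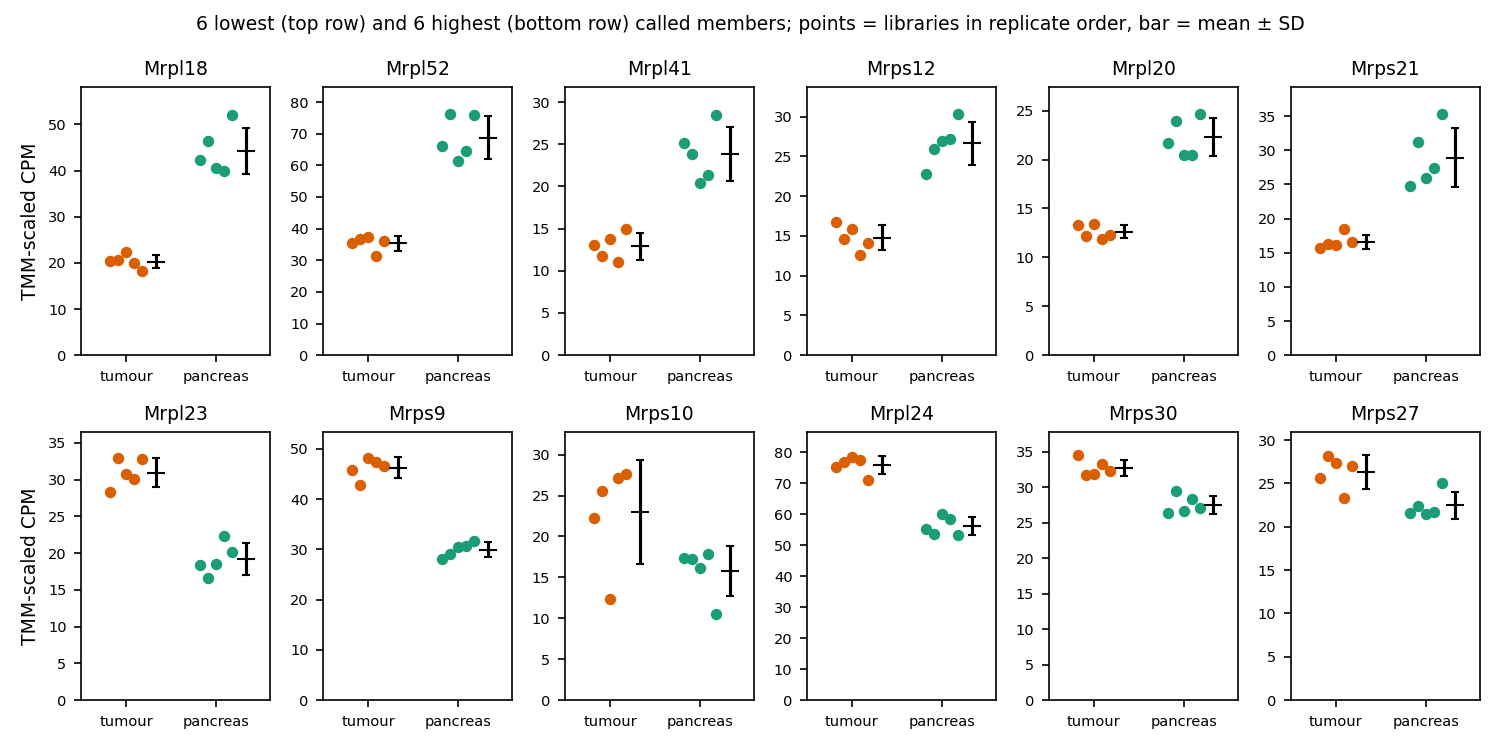
TMM-scaled CPM per library (vertical axis) in tumour and pancreas (points, with group mean and SD) for the 6 members with the lowest and the 6 with the highest fold change among those called. The groups are apart in all except Mrps27 and Mrps10, where tumour replicate 3 (12.3 CPM) and pancreas replicate 5 (10.5 CPM) stand below the other libraries of their groups.

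Of the other 39 members that fell, 7 did so by at least 1.5-fold: Mrps25, Mrps18b, Mrpl49 (-0.69), Mrpl54 (-0.68), Mrps26 (-0.67), Mrpl51 (-0.65) and Mrpl11 (-0.61). The weakest decrease called was that of Mrpl42 (-0.17, adjusted p = 0.00874). The remaining members that rose did so slightly. Mrpl37 averaged 29.1 ± 1.90 CPM in tumour and 25.0 ± 1.23 CPM in pancreas (0.22 ± 0.06, adjusted p = 0.00730), and Mrpl13 averaged 49.0 ± 2.43 CPM in tumour and 44.7 ± 2.44 CPM in pancreas (0.13 ± 0.05, adjusted p = 0.0405) with overlapping ranges. The 24 members that were not called lay between -0.24 (Mrpl57, adjusted p = 0.0530) and 0.09 (Mrps18a). Mrpl44 (0.00, adjusted p = 0.998), Mrps17 (0.00, adjusted p = 0.963) and Mrpl1 (0.01, adjusted p = 0.952) were nearest to equal levels. A p above the threshold does not show that a gene was the same in both groups.

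Members of 1 functional site did not all move together. The sites in this paragraph were chosen after the values were seen, and only values are given for them. At the stalk, which recruits translation factors, Mrpl12 averaged 42.1 ± 1.62 CPM in tumour and 57.3 ± 5.20 CPM in pancreas (log2 fold change -0.45, adjusted p = 2.8e-05). Mrpl11 of the stalk base averaged 16.3 ± 0.440 CPM in tumour and 25.0 ± 1.64 CPM in pancreas (-0.61, adjusted p = 1.7e-06). Mrpl10, to which Mrpl12 attaches, was slightly higher instead, with 56.0 ± 2.59 CPM in tumour and 50.4 ± 1.63 CPM in pancreas (0.15, adjusted p = 0.0116), a call lost without pancreas replicates 3 and 4 (0.0622). At the tunnel exit Mrpl23 and Mrpl24 rose, Mrpl17 (-0.40), Mrpl22 (-0.25) and Mrpl47 (-0.22) fell, and Mrpl45, which tethers the ribosome to the inner membrane, was not called (0.08, adjusted p = 0.300). With scaling by totals alone the calls of Mrpl22 (0.109) and Mrpl47 (0.217) were lost. That of Mrpl47 was also lost without tumour replicate 1 (0.0724) or 4 (0.0706) or pancreas replicate 2 (0.0545) or 3 (0.0506). The same held without pancreas replicates 3 and 4 (0.0608) and with scaling by the upper quartile of counts (0.0897). Mrpl58, a relative of bacterial release factors that can free stalled ribosomes, averaged 16.9 ± 1.57 CPM in tumour and 21.2 ± 2.13 CPM in pancreas (-0.33, adjusted p = 0.00500).

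The 3 mammalian proteins related in sequence to bacterial S18 occupy different places in the mitoribosome, and 1 of their genes fell. Mrps18b (chr17:35910379-35916389) had 28.4, 32.4, 32.1, 30.8 and 28.5 CPM in the tumour libraries, against 49.9, 53.7, 41.8, 45.1 and 56.0 CPM in the pancreas libraries, and fell without overlap (-0.70 ± 0.08, adjusted p = 4.1e-06). Mrps18c (chr5:100798627-100804471) had 18.3, 19.4, 18.7, 20.3 and 21.7 CPM in tumour, against 20.9, 18.1, 20.5, 18.3 and 18.4 CPM in pancreas (0.03 ± 0.07, adjusted p = 0.713). Mrps18a (chr17:46110986-46128910), of the large subunit, had 38.8, 36.6, 40.7, 40.4 and 42.3 CPM in tumour, against 34.4, 41.0, 33.0, 37.6 and 40.6 CPM in pancreas (0.09 ± 0.07, adjusted p = 0.264). The ranges of Mrps18c and Mrps18a overlapped between groups, and Mrps18a was called higher when libraries were scaled by their totals alone (0.19, adjusted p = 0.0236). The predicted antisense gene Gm16279 overlaps 30.5% of the exonic bases of Mrps18b and also fell (-1.40, adjusted p = 3.5e-05).

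Mrps11 (chr7:78783119-78792989, plus strand) and Mrpl46 (chr7:78775236-78783531, minus strand) are members that lie head to head, and their exons share 173 bases. Mrps11 had 10.8, 10.6, 12.4, 10.2 and 11.4 CPM in the tumour libraries, against 15.4, 13.8, 13.5, 14.9 and 16.8 CPM in the pancreas libraries (-0.43 ± 0.09, adjusted p = 7.1e-04). Mrpl46 had 10.1, 10.3, 10.7, 9.59 and 12.0 CPM in tumour, against 13.3, 15.0, 14.3, 12.6 and 12.6 CPM in pancreas (-0.36 ± 0.09, adjusted p = 0.00263). Both fell without overlap between groups, by similar amounts.

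Other genes share exonic bases with 9 members over at least 20% of their length, and 7 members have a pseudogene copy at least 90% identical over at least 50% of the transcript. Mrps25 fell (-0.76 ± 0.10, adjusted p = 1.0e-05) although Nr2c2, which overlaps 69.8% of its exonic bases, rose (0.73, adjusted p = 2.8e-04). Mrps34 had 31.7, 35.3, 33.3, 34.2 and 34.5 CPM in the tumour libraries, against 42.4, 54.3, 44.1, 48.7 and 54.4 CPM in the pancreas libraries (-0.53 ± 0.07, adjusted p = 2.5e-05), while Mapk8ip3, which overlaps 63.4% of it, rose (0.26, adjusted p = 0.00192). Mrpl53, overlapped over 88.0% by the predicted gene Gm42688, had 4.15, 12.6, 14.3, 7.48 and 7.09 CPM in tumour, against 9.59, 8.73, 7.54, 10.3 and 7.79 CPM in pancreas, and its tumour values were the most variable of all members (coefficient of variation 45.9%). Among the 63 members with neither kind of sharing, 38 fell and 5 rose.

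Levels differed far more between members than between groups. Per kilobase of the principal transcript, members averaged 3.13 CPM (Mrpl48) to 84.5 CPM (Mrpl52) in tumour, a 27.0-fold span, and 4.29 CPM (Mrpl48) to 165 CPM (Mrpl52) in pancreas, a 38.3-fold span. The median level per kilobase was 18.6 CPM in tumour and 24.1 CPM in pancreas for Mrpl genes, and 14.9 CPM in tumour and 15.7 CPM in pancreas for Mrps genes. By the mean of both groups the most abundant Mrpl genes were Mrpl52 (84.5 CPM per kilobase in tumour and 165 in pancreas), Mrpl33 (83.4 in tumour and 97.2 in pancreas) and Mrpl30 (69.7 in tumour and 70.8 in pancreas). The most abundant Mrps genes by that mean were Mrps21 (34.0 in tumour and 59.3 in pancreas), Mrps34 (36.8 in tumour and 53.2 in pancreas) and Mrps18a (45.0 in tumour and 42.2 in pancreas). Mrps18a was the highest of these in tumour, and in pancreas Mrps18b (45.7) and Mrps6 (44.3) lay above it. The median coefficient of variation of a member was 6.08% in tumour and 8.22% in pancreas.

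Of these 6 abundant genes 4 fell (Mrpl52, Mrpl33, Mrps34 and Mrps21), and Mrpl30 and Mrps18a did not pass the test. Mrpl33, a small protein with a bacterial relative, had 41.3, 37.7, 38.9, 39.7 and 41.8 CPM in the tumour libraries, against 44.1, 46.1, 47.4, 45.5 and 49.1 CPM in the pancreas libraries (-0.22 ± 0.05, adjusted p = 0.00144), and the call was lost when libraries were scaled by their totals alone (0.0555). Mrpl30 had 65.6, 70.5, 66.2, 67.1 and 68.4 CPM in tumour, against 69.6, 77.0, 62.3, 62.4 and 71.6 CPM in pancreas (-0.02 ± 0.06, adjusted p = 0.768). Its tumour values fell within the range of the pancreas values.

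**Figure D4:**
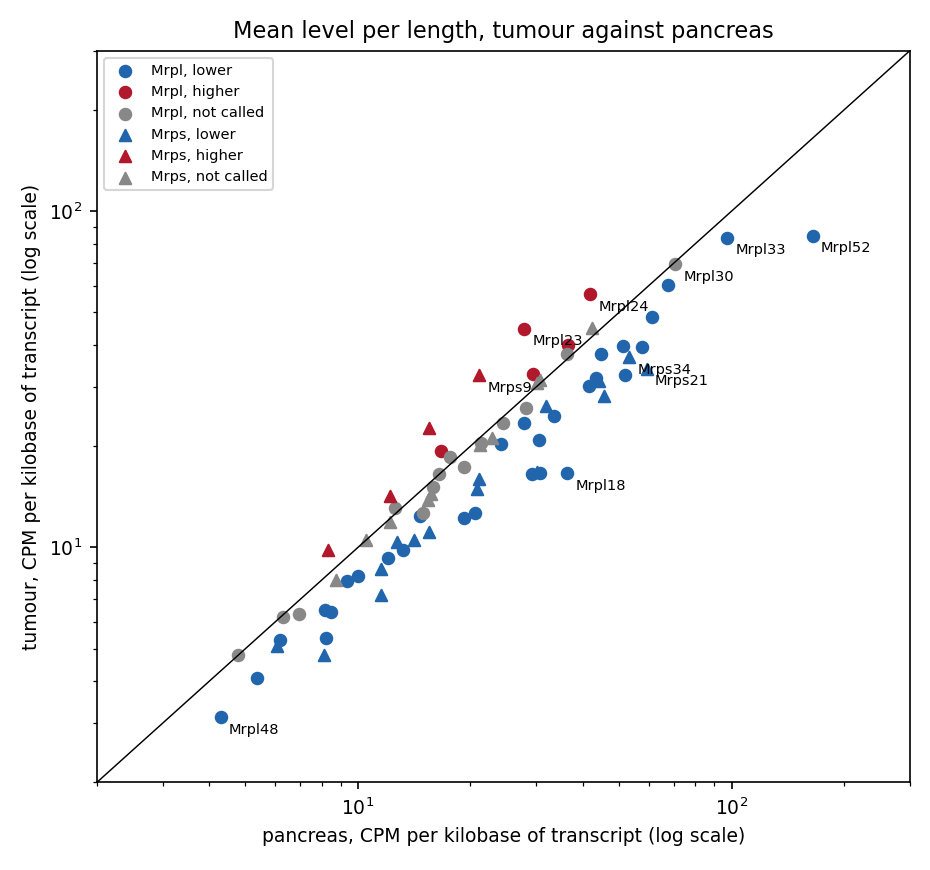
Level per kilobase in tumour against pancreas (both log axes, CPM per kilobase of the principal transcript), 1 point per member, its shape giving the name class and its colour the call, with the line of equal levels. Most points lie below the line, where pancreas is higher, and Mrpl52 (84.5 in tumour and 165 in pancreas) is the most abundant member in both groups.

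Members have short transcripts (median 1302 bases, against 2981 over tested protein-coding genes), and over all genes short transcripts were called lower in tumour more often than long ones: 50.6% of 816 protein-coding genes under 1000 bases were lower, and 25.7% of 4286 genes of 4000 bases or more. Over 13491 protein-coding genes the Spearman correlation of transcript length with the log2 fold change was 0.21, a description across genes that share libraries, and over the 78 members it was 0.04. Among protein-coding genes with a transcript under 2000 bases and a mean level within the range of the members, 51.7% of 1641 genes were called lower and 22.7% higher (median log2 fold change -0.22). Of the 53 members that short 54.7% were called lower and 15.1% higher (median -0.24), which is near that background. By length alone, without matching for level, 64.0% of 25 members under 1000 bases were lower and 4.00% higher, against 50.6% and 17.0% of protein-coding genes. From 1000 to 2000 bases, 46.4% of 28 members were lower and 25.0% higher, against 46.1% and 23.7%. From 2000 to 4000 bases, 56.2% of 16 members were lower and 6.25% higher, against 39.7% and 31.3%. Among transcripts of 4000 bases or more, 7 of 9 members were lower (77.8%) and 0 higher. Of 4286 protein-coding genes of that length 25.7% were lower and 48.6% higher (medians -0.40 for the members and 0.21 for those genes). Whether transcript length has a part in the lower values of the members was not tested.

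The other components of mitochondrial translation did not share 1 direction. Beside the counts below, 33.4% of all tested genes were called lower in tumour and 32.4% higher. Of 5 mitoribosomal proteins under other symbols 3 fell and 1 rose. Gadd45gip1, of the large subunit, fell most (-0.66 ± 0.06, adjusted p = 3.1e-07, with 36.2 ± 2.01 CPM in tumour and 57.2 ± 3.68 CPM in pancreas), and Ptcd3, of the small subunit, also fell (-0.43 ± 0.07, adjusted p = 8.5e-05). Dap3, a GTP-binding protein of the small subunit, rose (0.22 ± 0.05, adjusted p = 0.00302, with 45.4 ± 1.63 CPM in tumour and 39.1 ± 2.43 CPM in pancreas).

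The ribosomal RNAs that these proteins bind were higher in tumour. The small-subunit RNA mt-Rnr1 averaged 874 ± 57.5 CPM in tumour and 349 ± 104 CPM in pancreas (1.33 ± 0.17, adjusted p = 4.1e-05), and the large-subunit RNA mt-Rnr2 averaged 937 ± 92.6 CPM in tumour and 702 ± 68.6 CPM in pancreas (0.42 ± 0.08, adjusted p = 2.9e-04). How ribosomal RNA was removed from the libraries or messenger RNA selected bears on these levels and is not given in the sources used here.

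Factors that assemble the mitoribosome were split evenly, with a median log2 fold change of -0.07. Of 29 tested 12 were lower (41.4%) and 12 higher (41.4%), against 33.4% and 32.4% of all tested genes. Mettl17, a small-subunit assembly factor, averaged 9.51 ± 0.598 CPM in tumour and 24.1 ± 1.02 CPM in pancreas (-1.34 ± 0.07, adjusted p = 2.6e-09). Mrm2, a methyltransferase of the large ribosomal RNA, averaged 4.64 ± 0.754 CPM in tumour and 9.44 ± 0.893 CPM in pancreas (-1.03 ± 0.13, adjusted p = 8.7e-06). In the other direction, Tfb1m, which methylates the small ribosomal RNA, averaged 7.55 ± 0.918 CPM in tumour and 4.67 ± 0.313 CPM in pancreas (0.69 ± 0.11, adjusted p = 1.1e-04). The GTPase Noa1 fell as well (-0.78 ± 0.10, adjusted p = 8.9e-06).

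Of 15 translation factors and partners 6 fell (40.0%) and 4 rose (26.7%), with a median of -0.03. Tufm, the elongation factor that delivers transfer RNAs, averaged 61.5 ± 0.916 CPM in tumour and 86.4 ± 7.35 CPM in pancreas (-0.49, adjusted p = 4.2e-06), and Mrrf, which recycles ribosomes, fell by 0.54 (adjusted p = 3.1e-05). Guf1, a GTPase related to elongation factors, rose to 41.5 ± 2.74 CPM in tumour, against 22.7 ± 1.92 CPM in pancreas (0.87, adjusted p = 1.6e-07). Of 17 mitochondrial transfer RNA synthetases 6 rose (35.3%) and 5 fell (29.4%), near the shares of all tested genes, with a median of 0.11. All 3 subunits of the amidotransferase that completes glutaminyl transfer RNA rose (Qrsl1 0.20, Gatb 0.54 and Gatc 0.27). Wars2 (1.05, adjusted p = 1.1e-06), Nars2 (1.03, adjusted p = 2.5e-07) and Mars2 (0.94, adjusted p = 2.5e-08) rose, and Cars2 fell (-1.27, adjusted p = 3.0e-08); they load tryptophan, asparagine, methionine and cysteine. Of 17 genes for mitochondrial transcription and RNA processing 8 fell (47.1%) and 2 rose (11.8%), with a median of -0.12. Among those that fell were the RNA polymerase Polrmt (-0.47, adjusted p = 2.5e-04) and the RNA-binding protein Fastkd5 (-0.84, adjusted p = 2.5e-06).

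Cytosolic ribosomal protein genes and nuclear genes of the respiratory chain were mostly lower as well. Of 77 tested cytosolic ribosomal protein genes 67 fell (87.0%) and 1 rose, with a median of -0.45. Of 81 nuclear respiratory chain genes 55 fell (67.9%) and 6 rose, with a median of -0.35. The corresponding values of the members were 57.7% and -0.25, and the difference between the lists was not tested.

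**Figure D5:**
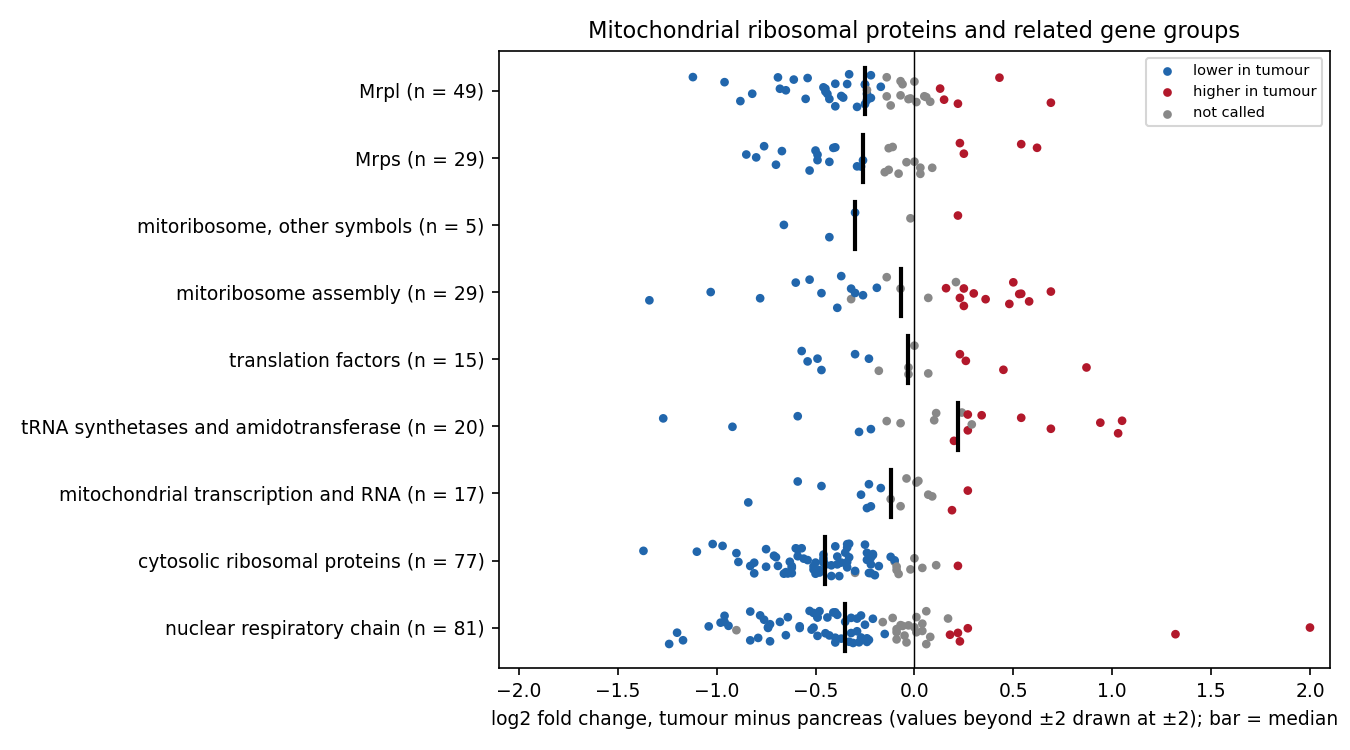
Log2 fold change of tumour over pancreas (horizontal axis) of every tested gene (points) in the Mrpl genes, the Mrps genes and related lists, with the median of each list and colour by call. The medians of cytosolic ribosomal protein genes (-0.45) and nuclear respiratory chain genes (-0.35) lie below those of Mrpl (-0.25) and Mrps (-0.26), and that of the synthetases with the 3 amidotransferase subunits (0.22, over 20 genes) lies above 0.

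The regulators named above differed among themselves. Nrf1 averaged 33.0 ± 2.28 CPM in tumour and 34.6 ± 2.12 CPM in pancreas and was not called (adjusted p = 0.333), nor was Yy1, with 153 ± 4.98 CPM in tumour and 149 ± 5.51 CPM in pancreas (adjusted p = 0.420). Gabpa, the ETS subunit of GABP, rose to 62.8 ± 2.88 CPM in tumour, against 53.3 ± 2.89 CPM in pancreas (0.24, adjusted p = 0.00112). Myc fell to 65.1 ± 3.75 CPM in tumour, against 140 ± 23.6 CPM in pancreas (-1.10 ± 0.10, adjusted p = 7.9e-07). Among the coactivators, Pprc1 fell (-0.73, adjusted p = 4.2e-07), Ppargc1b rose (1.14 ± 0.22, adjusted p = 4.8e-04) and Ppargc1a was too low to be tested. Of other regulators, Esrra (-0.33, adjusted p = 1.8e-04) and Tfam (-0.17, adjusted p = 0.00782) fell. In all, 4 of the 9 regulators tested fell (44.4%) and 2 rose (22.2%), against 33.4% and 32.4% of all tested genes.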

How the data were processed

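RNA from 10 sorted cell samples was made into libraries with the NEBNext Ultra kit from 2 µg each, per the labels' protocols. The authors deposited estimated counts of 55401 genes. The tools HTSeq, HISAT and HISAT2 and the build mm10 stand in the submitters' processing notes; versions, annotation, strand setting and filters were not given in the sources used. A count of exactly 4 occurred 1.69 to 2.07 times as often as its neighbours, so a fragment seems to add several counts, the number of fragments is unknown and no counting interval is given. Values were already whole numbers, and 0 columns belonged to no sample.

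The members and gene lists were chosen with earlier results of these data known. Groups and replicate numbers came from the sample titles, and columns were matched through the codes in the descriptions (COCUL for tumour, CTL for pancreas), which the labels do not explain. The filter was filterByExpr of edgeR at its defaults (at least 10 counts in enough libraries and 15 in total) and left 17548 genes, scaled by TMM factors (1.03 to 1.04 in tumour and 0.960 to 0.972 in pancreas). Tumour was compared with pancreas by the robust quasi-likelihood F test (edgeR 4.0.16 under R 4.3.3), and p-values were adjusted by Benjamini-Hochberg across the 17548 genes. The standard error is the size of the log2 fold change divided by the square root of F. CPM are TMM-scaled except in sums per library called unscaled. The procedure was tested on data simulated from the levels and spread of all tested genes, not of the members alone. It called 36 of 74 genes changed 1.5-fold (48.6%), 42 of 58 changed 2-fold (72.4%) and 57 of 61 changed 4-fold (93.4%). Of 16962 unchanged genes it called 11. Far fewer genes were changed in the simulation than the 65.8% of tested genes called in the data. The Benjamini-Hochberg adjustment depends on that share, so these rates do not carry over to the data. Coordinates, exons and transcript lengths are those of GENCODE M21 (mm10), matched for 55141 gene identifiers; promoters are RefSeq windows of GRCm38.p6. Pseudogene copies were found by blastn.

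Values per library are given for the 6 lowest and 6 highest fold changes among called members with a mean of at least 5 CPM, the 3 most abundant members per length of each class and the Mrps18 paralogs; in each related list up to 4 called genes with the largest change and a mean of at least 1 CPM were eligible to be named. Genes given outside this rule (the Mrps11 and Mrpl46 pair, members with overlapping genes, members of a functional site, and Nrf1, Yy1 and Gabpa) were chosen after their values were seen. Also named outside it were the amidotransferase subunits, Ppargc1a, Tfam and some of the cell type and proliferation markers. Older symbols of 3 assembly factors and 1 RNA processing gene were not matched. Alternatives were other scalings and filters, DESeq2 1.42.0, limma-voom 3.58.1, a replicate block, counts divided by 4 and leaving out libraries. Figures were drawn with matplotlib 3.10.9.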

Additional observations from a re-analysis of the deposited data

Results flagged for a closer look

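In 5 of the 162 sets of 5 libraries searched (members and sums in each group), 1 library stood far from the other 4 by Dixon's criterion; chance alone gives about 1 in 20. Mrps21 was at 18.4 CPM in tumour replicate 4 and 15.7 to 16.5 CPM in the other tumour libraries. Mrpl36, a small protein with a bacterial relative, was at 16.5 CPM in tumour replicate 5 and 18.8 to 19.6 CPM in the others. Mrpl14 was at 27.1 CPM in tumour replicate 1 and 24.9 to 25.3 CPM in the others. Mrps27 was at 25.1 CPM in pancreas replicate 5 and 21.5 to 22.4 CPM in the other pancreas libraries. Mrps10 was at 10.5 CPM in pancreas replicate 5 and 16.1 to 17.8 CPM in the others. No single library accounts for all of them, and both pancreas values are in replicate 5.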

How the results depend on the processing

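In 20 refits no direction of a called member reversed. In all of them 35 of the 45 members that fell and 5 of the 9 that rose (Mrps9, Mrpl24, Mrpl37, Mrpl23 and Mrps30) were called. Leaving out each library in turn gave 41 to 48 members lower and 7 to 9 higher (Mrpl 27 to 32 and 4 to 5, Mrps 14 to 17 and 3 to 4). Without pancreas replicates 3 and 4 the members called higher were 5 (3 Mrpl and 2 Mrps), and the cause was not tested. They were also 5 (3 Mrpl and 2 Mrps) without members that share at least 20% of their exonic bases or have a pseudogene copy. That alternative was chosen after seeing the data and leaves fewer members. It keeps members that share fewer exonic bases, such as Mrpl18. Per TMM-scaled library size the ratios of the tumour to the pancreas sums were 0.843 (Mrpl) and 0.842 (Mrps), from the scaling factors themselves. The call of Mrpl13 (0.13) was lost in 9 settings. Among them were the fits without tumour replicate 3 (0.0658), 4 (0.0706) or 5 (0.0969) and without pancreas replicate 1 (0.0648), 3 (0.0973) or 5 (0.0861). Scaling by totals alone lost the calls of Mrpl36 (0.131), Mrpl50 (0.182) and Mrps35 (0.130). So did scaling by the upper quartile of counts (0.0551, 0.0767 and 0.0536) and leaving out pancreas replicate 2 (0.0530, 0.0680 and 0.0514). That of Mrpl50 was also lost without tumour replicate 1 (0.0652), 3 (0.0602) or 4 (0.0561) or pancreas replicate 5 (0.0612). With the replicate block 45 members were lower and 7 higher, but same-numbered libraries did not deviate together (correlations -0.0193 to 0.0394), so the numbers do not pair them. DESeq2 called 46 lower and 9 higher, and limma-voom 45 and 8. The number of fragments behind a count is unknown and limits what can be said of the precision.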
